A study of Mus musculus with 6 samples.

Results

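Aminoacyl-tRNA synthetases join each amino acid to its transfer RNA (tRNA), the step that supplies ribosomes with building blocks. Mammalian cells keep largely separate sets for the cytosol and for mitochondria, both encoded in the nucleus, and Gars and Kars (glycyl and lysyl) serve both compartments. Several cytosolic synthetase genes are known targets of ATF4, a transcription factor made when cells lack amino acids or translation initiation is inhibited. The genes described here are 36 of the 24061 in the deposited count table, 20 cytosolic and 16 mitochondrial (symbols that end in 2), chosen by gene symbol. Newer symbols of most cytosolic members end in 1 (Aars1 for Aars); all 36 were found by Entrez gene ID.

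The study sequenced RNA of cultured resident fibroblasts from fibrotic lungs of TGF-alpha transgenic mice; TGF-alpha is a growth factor that signals through the EGF receptor. Cells of all 6 libraries carried the transgene, and the sources used here name neither its promoter nor the age of the mice. In 3 libraries (numbered 1 to 3) cells had received a stealth control siRNA, and in 3 (4 to 6) a stealth siRNA against Wt1, a zinc finger transcription factor. Whether replicate libraries stem from different cultures or animals is not stated, so the spread that p-values measure here may be technical.

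Libraries held 26141921 to 32085698 counts, and the smallest count of any synthetase gene in a library was 54. Levels are given in CPM, counts relative to library size, scaled with trimmed mean of M-values (TMM) factors. The siRNA target, Wt1, had 48.8, 55.7 and 51.5 CPM in controls and fell to 11.4, 8.63 and 7.92 CPM in libraries 4 to 6. The summed level of 10 fibroblast markers was 28750 to 40195 CPM in controls and 41284 to 48565 CPM after Wt1 siRNA. Sums over 12 macrophage markers (41.5 to 51.1 and 34.4 to 39.1 CPM; Siglecf at 0 in all libraries), 10 epithelial markers (59.9 to 82.5 and 76.2 to 88.6 CPM; Scgb1a1 at 0), 8 endothelial markers (105 to 130 and 88.6 to 108 CPM) and 6 mesothelial markers (175 to 223 and 136 to 178 CPM) were far lower. Within these lists members moved in both directions: 5 fibroblast markers rose (among them Col1a1, log2 fold change 1.13) while Pdgfra (-1.17) and Col3a1 (-0.46) fell. Of the mesothelial markers Krt19 (1.12) and Msln (0.87) rose and Lrrn4 (-2.10) and Upk3b (-2.16) fell. Krt19 is on the epithelial list as well, where it rose while Krt18 (-0.59) fell. Cd14 (-1.15) fell among macrophage markers and Kdr (-0.88) among endothelial markers. The part of these cell types in the results below was not tested. In bulk RNA, a change in the makeup of the culture and a change of RNA per cell cannot be told apart.

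The promoter sequences are shown first because a short element is present in some members and not in others. ATF4 is known to bind, with C/EBP proteins, a composite element whose core reads TGATGNAA. That core was searched on both strands of RefSeq promoter windows (GRCm38.p6), which reach from 250 bases before to 50 bases after a transcription start. A window was held for 27 members; Cars, Hars, Lars, Nars, Rars, Vars, Wars, Hars2 and Pars2 have no entry. The core was in 5 of 13 cytosolic windows (Aars, Gars, Iars, Tars and Yars) and in 0 of 14 mitochondrial genes, against 4.51% of 27025 genes with a window. Below, the core or its complement is in capitals, and each stretch reads 5′ to 3′ on the gene's strand.

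Aars, chr8:111033704-111033763, plus strand, core 112 bases before the start: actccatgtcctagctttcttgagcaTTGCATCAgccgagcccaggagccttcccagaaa
Aars, chr8:111033825-111033858, plus strand, core 9 bases after the start: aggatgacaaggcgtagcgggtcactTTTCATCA
Gars, chr6:55037945-55038000, plus strand, core 30 bases before the start: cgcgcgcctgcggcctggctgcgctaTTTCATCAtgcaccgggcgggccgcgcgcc
Iars, chr13:49682111-49682144, plus strand, core 7 bases after the start: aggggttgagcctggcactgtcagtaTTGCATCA
Tars, chr15:11399659-11399699, minus strand, core 15 bases before the start: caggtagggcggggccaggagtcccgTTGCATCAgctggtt
Yars, chr4:129189880-129189913, plus strand, core 3 bases after the start: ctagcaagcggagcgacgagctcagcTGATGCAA

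Aars carries the core on both sides of the start its window uses. That start lies downstream of the first base of the gene as RefSeq gives it for Aars and Yars, so these windows belong to another annotated start. The narrower core TGATGCAA, each match of which is also a match of TGATGNAA, was in Aars, Iars, Tars and Yars (30.8% of cytosolic windows, against 1.03% of all genes), while Gars holds the form complementary to TTTCATCA only. A match of letters does not show that a factor binds there, and no match says only that these letters are not in the window.

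Synthetase transcripts of the cytosol were far more abundant than their mitochondrial counterparts. Per kilobase of transcript, the cytosolic members had a median of 30.8 CPM in controls and the mitochondrial members 2.86 CPM, a 10.8-fold difference. Gars (131 ± 6.5 CPM per kb, SD, n = 3) and Nars, the asparaginyl enzyme (116 ± 6.46), led the cytosolic set, and their control libraries did not overlap each other or Aars (67.6 ± 12.9). The place of Aars rests on the length chosen, a transcript of 5.75 kb that shares 1326 exon bases with Exosc6. Before division by length, control means were 389 CPM for Aars, 318 CPM for Nars and 311 CPM for Gars. Farsa, the alpha subunit of the phenylalanyl enzyme (14.9 ± 1.29), and Mars1, the methionyl enzyme (13.3 ± 2.40), were lowest and overlapped. From Yars down to Qars, 8 genes between 38.2 and 27.1 CPM per kb overlapped their neighbours in the order. Of the mitochondrial genes 14 lay below Mars1; Iars2 (19.5 ± 0.44) and Lars2 did not. Mars2 came out lowest (0.607 ± 0.150 CPM per kb), over an annotated GENCODE transcript of 11.294 kb. That length exceeds the span of the gene in RefSeq (chromosome 1, 55237177 to 55240058). The place of Mars2 as lowest therefore rests on the length chosen.

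**Figure D1:**
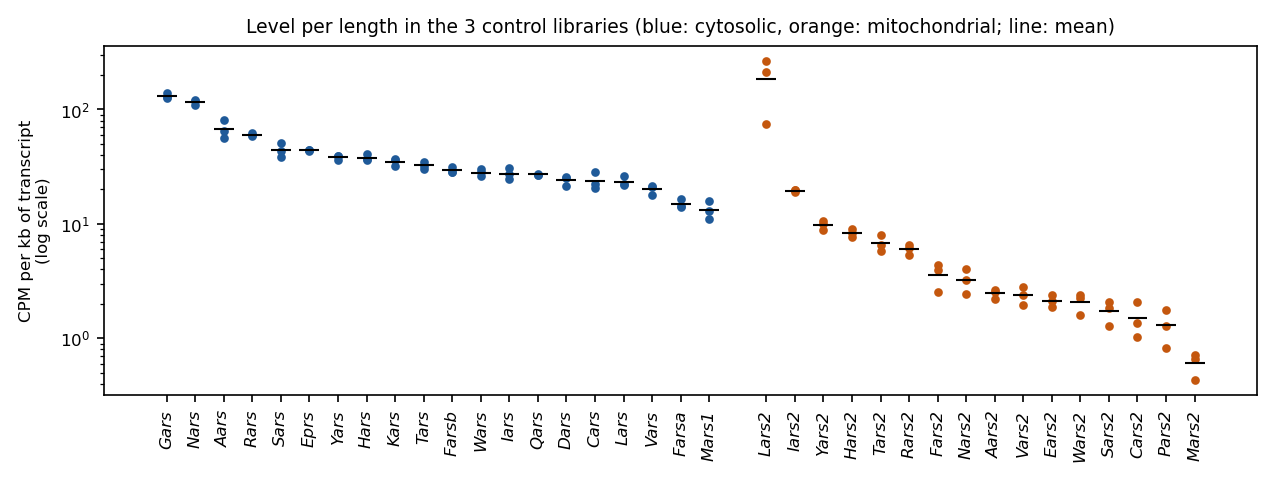
Level of each synthetase gene in the 3 control libraries, in CPM per kb of transcript on a log axis, with cytosolic genes at left and mitochondrial genes at right, each ordered by mean (points: libraries; line: mean). Cytosolic means run from 131 to 13.3 CPM per kb, and 14 of 16 mitochondrial means lie below that range.

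Lars2, the mitochondrial leucyl enzyme, stood apart from both sets. The annotation used for counting is not stated, so whether all reads counted for Lars2 come from its transcript was not tested. Its control libraries had 288, 1024 and 828 CPM and the Wt1 siRNA libraries 554, 1001 and 756 CPM, so that controls alone spanned a 3.56-fold range. The groups overlapped, with a log2 fold change of 0.11 ± 0.35 (SE; 95% interval -0.64 to 0.87; adjusted p = 0.869 by edgeR), and from -0.26 to 0.47 over the alternative settings. The summed mitochondrial set was 542 to 1281 CPM over all libraries with Lars2 and 237 to 257 CPM without it. Control means without Lars2 were 252 ± 5.93 CPM and those after Wt1 siRNA 245 ± 9.30 CPM (SD, n = 3). The summed cytosolic set, by comparison, had 2583, 2735 and 2542 CPM in controls and 3335, 3491 and 3027 CPM after Wt1 siRNA, without overlap.

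After Wt1 siRNA, 5 cytosolic synthetase genes rose (Wars, Iars, Gars, Aars and Cars, by 1.44- to 2.37-fold) and 0 fell, whereas of the mitochondrial genes 0 rose and 1, Wars2, fell. A gene is said to have risen or fallen at a Benjamini-Hochberg adjusted p below 0.05 over all 14190 genes tested (edgeR quasi-likelihood test). All 36 members passed the filter on low counts. The 5 of 20 cytosolic genes are 25%, where 9.05% of all genes tested were higher; the 1 of 16 mitochondrial genes is 6.25%, where 10.3% of all genes were lower. At an unadjusted p below 0.05, 8 of 20 cytosolic genes were higher and 1 lower, and 1 of 16 mitochondrial genes was higher and 1 lower. Among all 14190 genes tested, 2208 were higher and 2343 lower at that unadjusted threshold. DESeq2 and limma-voom called 0 cytosolic genes lower and 0 mitochondrial genes higher. The Wt1 siRNA libraries lay above all controls in 9 cytosolic genes (45%, against 18.1% of all genes) and below in 2 (10%, against 18.3%). The same was so for 1 mitochondrial gene in each direction. Median log2 fold changes were 0.13 over the cytosolic set, 0.01 over the mitochondrial set and 0.00 over all genes tested. The cytosolic count was 3 when control library 3 or either of Wt1 siRNA libraries 4 and 5 was left out.

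**Figure D2:**
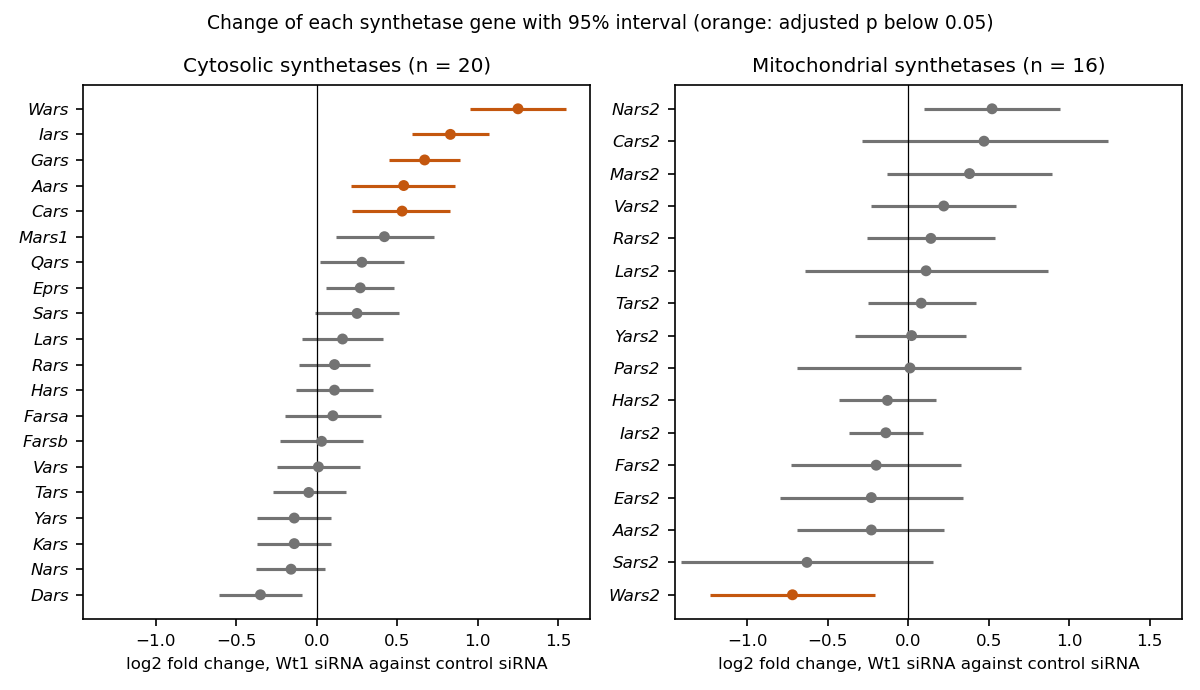
Log2 fold change (Wt1 siRNA against control siRNA) of the 20 cytosolic and 16 mitochondrial synthetase genes, with 95% intervals from the edgeR fit, orange where the adjusted p is below 0.05. The 5 orange cytosolic genes lie between 0.53 and 1.25, and the 1 orange mitochondrial gene, Wars2, lies at -0.72.

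Among cytosolic enzymes, 8 are known to sit in the multi-synthetase complex, a large assembly held together by the scaffold proteins Aimp1, Aimp2 and Eef1e1. Iars, the isoleucyl enzyme of that complex (chromosome 13, 49682130 to 49734267), was the 1 of these 8 to pass; the count was 2 in 7 alternative settings and 3 in DESeq2. Control libraries had 135, 110 and 120 CPM of Iars and treated libraries 223, 208 and 218 CPM. The groups were well apart, by 0.83 ± 0.11 (SE) on the log2 scale, which is 1.78-fold (adjusted p = 3.81e-04, edgeR), and it passed in all 13 alternative settings.

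Mars1, which charges the initiator as well as the elongator methionine tRNAs, missed the threshold narrowly. Its values were 47.0, 32.9 and 38.1 CPM in controls and 54.9, 49.9 and 53.7 CPM after Wt1 siRNA (log2 fold change 0.42 ± 0.14, adjusted p = 0.0517). The groups did not overlap, and Mars1 passed in 7 of 13 alternative settings, among them DESeq2 (adjusted p = 0.0345) and limma-voom (0.0430). Its annotated exons share 68 bases with Ddit3, the stress factor CHOP, on the opposite strand. Ddit3 itself rose (35.2 ± 13.4 to 60.3 CPM, log2 fold change 0.77). Reads of that short stretch cannot be told apart without a stated strand setting, and its part in the Mars1 value was not tested.

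Eprs, the fused glutamyl and prolyl enzyme, had 218, 214 and 216 CPM in controls and 259, 273 and 249 CPM after Wt1 siRNA, groups that did not overlap (log2 fold change 0.27 ± 0.10, adjusted p = 0.0695). It passed in DESeq2 (adjusted p = 0.0350). Dars, the aspartyl enzyme, had 55.6, 46.5 and 54.7 CPM in controls and 41.1, 38.9 and 43.2 CPM after Wt1 siRNA, the only complex member whose treated libraries all lay below the controls. Its log2 fold change was -0.35 ± 0.12 (adjusted p = 0.0607, edgeR), and its adjusted p was 0.0260 without control library 2 and 0.0368 with library size scaling. Qars, the glutaminyl enzyme, had log2 fold changes of 0.28 ± 0.12 (adjusted p = 0.124), and of 0.38 without Wt1 siRNA library 6 (0.0462). Lars (0.16 ± 0.11), Rars (0.11 ± 0.10) and Kars (-0.14 ± 0.11), the leucyl, arginyl and lysyl enzymes, did not pass under any setting. The 3 scaffold genes did not pass: Aimp1 was at 0.02, Aimp2 at 0.14 and Eef1e1 at 0.31 on the log2 fold change scale, with 0 called in DESeq2 and limma-voom and 0 at an unadjusted p below 0.05.

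Outside the complex 4 of 12 cytosolic genes rose (33.3%), against 1 of 8 (12.5%) within it and 9.05% of all genes. Treated libraries lay above all controls in 4 of 12 genes outside (33.3%) and in 5 of 8 within (62.5%), against 18.1% of all genes. The largest change of any synthetase gene was that of Wars, the tryptophanyl enzyme (chromosome 12, 108860030 to 108894175). Wars had 80.2, 84.9 and 73.6 CPM in controls and 192, 222 and 153 CPM after Wt1 siRNA. Every treated library was well above every control (log2 fold change 1.25 ± 0.14, 2.37-fold, adjusted p = 1.46e-04).

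Gars (chromosome 6, 55038001 to 55079504) rose from 329, 299 and 307 CPM to 519, 508 and 457 CPM (log2 fold change 0.67 ± 0.10, adjusted p = 9.14e-04). Its groups were far apart relative to their spread, and it passed in all 13 alternative settings, as did Wars.

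Aars, the alanyl enzyme (chromosome 8, 111027778 to 111055569), had 323, 469 and 373 CPM in controls and 572, 644 and 475 CPM after Wt1 siRNA. Its groups did not overlap, but control library 2 and Wt1 siRNA library 6 were close. The log2 fold change was 0.54 ± 0.15 (adjusted p = 0.0254). The longest annotated Aars transcript shares 1326 exon bases with Exosc6 on the same strand; Exosc6 was scarce (8.57 ± 4.38 and 6.95 CPM) and did not pass. Cars, the cysteinyl enzyme (chromosome 7, 143557230 to 143600090), had 66.9, 91.0 and 72.3 CPM in controls and 112, 124 and 95.8 CPM after Wt1 siRNA, without overlap (log2 fold change 0.53 ± 0.14, adjusted p = 0.0207). Control library 2 was the highest control for both genes and Wt1 siRNA library 6 the lowest treated library. Neither passed when control library 1 or 3 or treated library 4 or 5 was left out: the adjusted p was 0.0937, 0.0891, 0.0993 and 0.0945 for Aars and 0.0784, 0.0795, 0.0859 and 0.0824 for Cars.

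**Figure D3:**
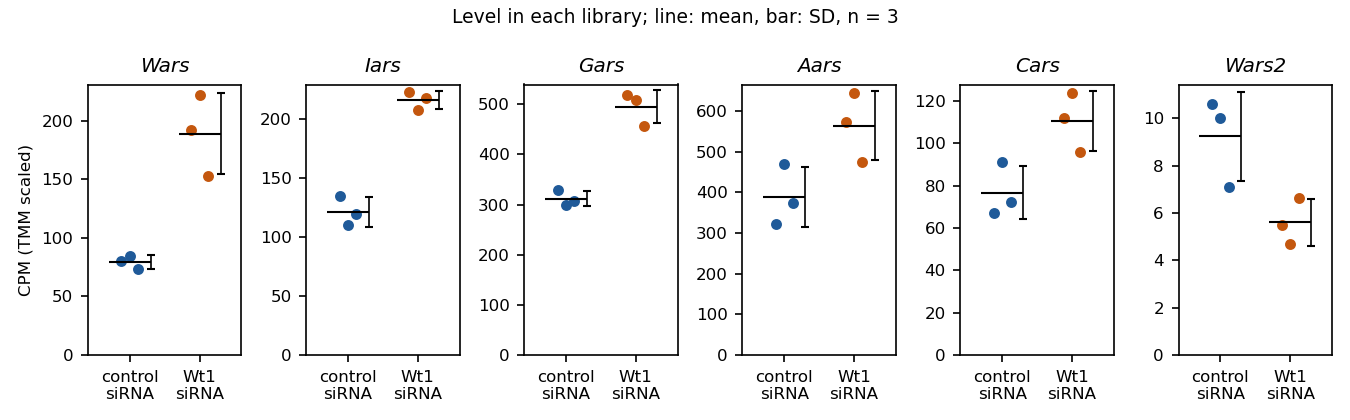
TMM-scaled CPM of the 6 synthetase genes that passed the test, in each of the 3 control and 3 Wt1 siRNA libraries (points), with mean (line) and SD (bar) and vertical axes that start at 0. Wars, Iars, Gars, Aars and Cars lie higher in all treated libraries than in any control, and Wars2 lies lower.

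The other 8 cytosolic genes outside the complex had log2 fold changes from -0.16 to 0.25. Sars, the seryl enzyme, was at the upper end (0.25 ± 0.12), with overlapping groups, and reached an adjusted p of 0.0399 without control library 2. Nars, which has 324, 332 and 298 CPM in controls, was at the lower end with 295, 283 and 274 CPM after Wt1 siRNA (log2 fold change -0.16 ± 0.10, adjusted p = 0.292). Its groups were only just apart. Hars (0.11), Farsa (0.10), Farsb (0.03), Vars (0.01), Tars (-0.05) and Yars (-0.14), the histidyl, phenylalanyl (both subunits), valyl, threonyl and tyrosyl enzymes, had overlapping groups and passed under no setting. Intervals of these 6 genes stayed within -0.37 and 0.40 on the log2 scale, so that changes of the size seen for Iars, Gars or Wars lay outside them.

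Set against the promoter windows, the core was present in all 3 genes that rose and have a window (Aars, Gars and Iars) and in 2 of 10 cytosolic genes with a window that did not pass (Tars and Yars). These 2 kept the narrower core close to the start and had log2 fold changes of -0.05 and -0.14. Windows of Wars and Cars were not analysed here. The counts are small and are given as a description.

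Synthetases fall into class I and class II, which differ in the fold of the catalytic domain. Eprs fuses a glutamyl enzyme (class I, as Ears2) and a prolyl enzyme (class II, as Pars2) and was counted in class I only. Of 10 cytosolic class I genes 3 rose (Wars, Iars and Cars; median log2 fold change 0.28), and of 10 class II genes 2 rose (Gars and Aars; median 0.07). These are 30% and 20%, against 9.05% of all genes. The treated libraries lay above all controls in 7 class I and 2 class II genes (70% and 20%, against 18.1% of all genes) and below in 0 and 2 (0% and 20%, against 18.3%).

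Mitochondrial synthetases showed few differences, and their values were less precise: the median SE of a log2 fold change was 0.22, against 0.115 in the cytosolic set. Wars2, the mitochondrial tryptophanyl enzyme (chromosome 3, 99140107 to 99221230), had 10.6, 10 and 7.10 CPM in controls and 5.50, 4.68 and 6.63 CPM after Wt1 siRNA. The groups did not overlap, although control library 3 was close to Wt1 siRNA library 6 (log2 fold change -0.72 ± 0.23, adjusted p = 0.0499). It passed in 6 of 13 alternative settings. It did not pass with the size factors of DESeq2 in the edgeR fit (adjusted p = 0.0503), with robust shrinkage (0.0509), in limma-voom (0.0579), or when control library 1 or 2 or treated library 4 or 5 was left out (0.163, 0.102, 0.144 and 0.154).

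Nars2, the mitochondrial asparaginyl enzyme, was the only one with all treated libraries above the controls. It had 12.3, 9.15 and 15.3 CPM in controls and 17.1, 18.4 and 17.2 CPM after Wt1 siRNA (log2 fold change 0.52 ± 0.19, adjusted p = 0.0777, and 0.0375 without control library 3).

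The remaining 13 genes of the mitochondrial set besides Lars2 had overlapping groups and passed under no setting. Iars2, the isoleucyl enzyme and the most precisely measured, had 104, 108 and 108 CPM in controls and 90.3, 107 and 92.7 CPM after Wt1 siRNA (-0.14 ± 0.11). Iars2 shares 2148 exon bases with genes on the opposite strand, among them Rab3gap2, at 98.9 ± 3.22 CPM in controls with a log2 fold change of 0.02. Hars2 (-0.13), Yars2 (0.02), Tars2 (0.08) and Rars2 (0.14), which charge histidine, tyrosine, threonine and arginine, lay close to 0 on the log2 fold change scale. Aars2 (-0.23), Ears2 (-0.23), Fars2 (-0.20) and Vars2 (0.22), for alanine, glutamate, phenylalanine and valine, had SEs of 0.21 to 0.26. Sars2 (-0.63 ± 0.36), Cars2 (0.47 ± 0.35), Mars2 (0.38 ± 0.23) and Pars2 (0.01 ± 0.32), for serine, cysteine, methionine and proline, had group means of 2.10 to 8.92 CPM. Their intervals were wide, from -1.41 to 0.15 for Sars2 and from -0.29 to 1.24 for Cars2, and that of Cars2 includes rises as large as those of Cars, Gars or Iars.

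Partners that charge the same amino acid were then compared through the log2 ratio of the cytosolic to the mitochondrial gene within each library, which does not depend on scaling between libraries. There were 17 pairs, of which 13 share a symbol stem, and some share a gene (Eprs or Fars2). The ratio lay higher in all treated libraries for 5 pairs, lower for 1, and overlapped for 11. How often ratios between other genes lie apart in this way was not tested, so these counts are given as a description. The higher pairs include those of Wars, Iars and Aars, genes that had risen by themselves. A two-sided exact permutation test over 3 against 3 libraries cannot give less than p = 0.1, and after adjustment over the 17 pairs the smallest p was 0.283, so no pair could pass.

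Wars to Wars2 moved most. Wars was 7.60, 8.47 and 10.4 times Wars2 in controls and 34.8, 47.5 and 23.1 times after Wt1 siRNA, a difference of 1.95 in the log2 ratio (exact permutation p = 0.1). The difference was 0.98 for Iars to Iars2, 0.87 for Sars to Sars2, 0.78 for Aars to Aars2 and 0.49 for Eprs to Ears2. In these pairs all treated libraries were higher. The pair of Nars and Nars2 was the 1 with all treated libraries lower, by 0.71 on the log2 scale. Over the 17 pairs the difference was above 0 in 11 and below 0 in 6, which is again given as a description. For Cars and Cars2, whose log2 fold changes were 0.53 and 0.47, the log2 ratio differed by 0.03, with an SD between control libraries of 0.73, and for Mars1 and Mars2 also by 0.03.

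**Figure D4:**
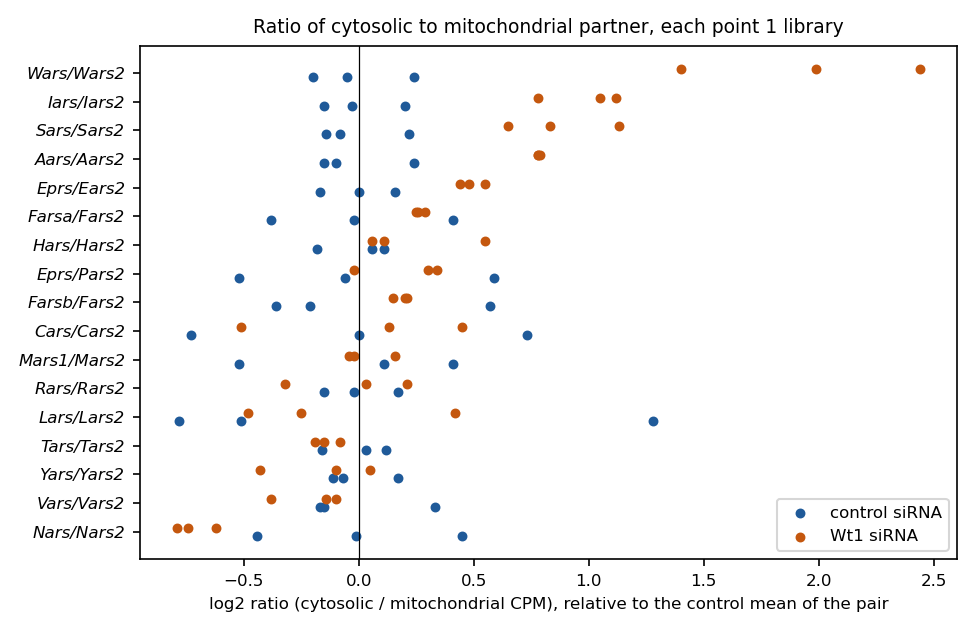
Log2 ratio of cytosolic to mitochondrial CPM for 17 pairs of partner genes, relative to the control mean of the pair; each point is 1 library. Treated libraries of Wars/Wars2, Iars/Iars2, Sars/Sars2, Aars/Aars2 and Eprs/Ears2 lie to the right of all controls, those of Nars/Nars2 to the left.

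Other genes around tRNA charging and translation were read against the shares of all genes, 9.05% higher and 10.3% lower. Among 10 genes of tRNA export, end repair and editing 1 rose (10%) and 0 fell: Xpot, the nuclear export receptor for tRNA, had 156, 168 and 148 CPM in controls and 286, 270 and 262 CPM after Wt1 siRNA (log2 fold change 0.80, adjusted p = 3.19e-04). The count was 2 in DESeq2 and when control library 3 or treated library 6 was left out. The list median was 0.04. The lower count was also 0 in DESeq2 and limma-voom, with 1 at an unadjusted p below 0.05.

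Of 6 cytosolic elongation genes (median log2 fold change 0.21, all 6 above 0) 2 rose (33.3%, against 9.05% of all genes), Eef1g (305 ± 25.6 to 388 CPM, adjusted p = 0.0328), a subunit of the exchange factor for Eef1a1, and Eif5a (531 ± 59.3 to 767 CPM, adjusted p = 0.0370). Eef1a1, which carries charged tRNA to the ribosome, was at 7595 ± 93.5 and 8681 CPM (adjusted p = 0.151), and Eef2, Eef1b2 and Eef1d had log2 fold changes of 0.22, 0.04 and 0.03. No member was lower (0 at an unadjusted p below 0.05, in DESeq2 or in limma-voom). The groups of Eif5a overlapped, since treated library 6 (573 CPM) was below control library 3 (581 CPM). The count of higher members was 0 with library size scaling and when control library 3 or treated library 4 or 5 was left out, and 1 when any other library was. Without control library 2 that 1 was another gene of the list, since neither Eef1g (adjusted p = 0.0687, edgeR) nor Eif5a (0.0558) passed.

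In mitochondria, glutaminyl-tRNA is made by amidation of mischarged glutamyl-tRNA through the GatCAB complex (Gatb, Gatc and Qrsl1). Gatc had 13.3, 8.59 and 10.1 CPM in controls and 17.6, 15.7 and 18 CPM after Wt1 siRNA (log2 fold change 0.68, adjusted p = 0.0252). It did not pass with library size scaling or when control library 2 or 3 or treated library 4 or 6 was left out. Gatb, Qrsl1 and Mtfmt, which formylates the initiator tRNA, did not pass (log2 fold changes -0.56, -0.12 and 0.34). Of 10 genes of mitochondrial initiation, elongation, release and recycling (median -0.08) 0 rose by edgeR, with 1 at an unadjusted p below 0.05 and 0 in DESeq2 and limma-voom. In that list 1 fell (10%, near the 10.3% of all genes), the recycling factor Mrrf (41.8 ± 6.58 to 28.3 CPM, adjusted p = 0.0170, edgeR). Mrrf did not pass when control library 3 or treated library 4 or 6 was left out, and 2 genes of the list fell without control library 2. Among 78 mitochondrial ribosomal protein genes 3 rose and 4 fell (3.85% and 5.13%, both below the shares of all genes), with a median of 0.02. The 3 with the smallest p were Mrpl10 (log2 fold change -0.69), Mrpl45 (-0.73) and Mrpl4 (0.65). Leaving out treated library 4 gave 1 that rose and 2 that fell, and leaving out library 6 gave 1 and 8; 1 rose without library 5 or with library size scaling.

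Genes of the amino acid response, most of them known ATF4 targets, rose widely. Of 28 listed, 21 rose and 1 fell (75% and 3.57%), and the median was 0.84 on the log2 scale. The list holds genes already known from these libraries to be higher, so it is no independent evidence of a direction. Sesn2, an inhibitor of mTORC1, had 55.6, 58.9 and 50 CPM in controls and 156, 154 and 136 CPM after Wt1 siRNA (log2 fold change 1.44). Slc7a1, a transporter of cationic amino acids, had 70.3, 66.2 and 67.7 CPM and 150, 176 and 145 CPM (1.21), and Asns, which makes asparagine, 128, 126 and 121 CPM and 274, 288 and 250 CPM (1.11). The transcript of Atf4 itself had 325, 442 and 368 CPM in controls and 468, 533 and 431 CPM after Wt1 siRNA, groups that overlapped (log2 fold change 0.33, adjusted p = 0.0927); Atf4 is known to be controlled mostly at translation, which counts of RNA do not measure. The promoter core was in 8 of 25 listed genes with a window (32%). The 1 gene that fell was Cebpb, a C/EBP factor (log2 fold change -0.56, adjusted p = 0.0125), and it did not pass without treated library 4.

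A list of 14 genes held eIF2 alpha, the kinases and phosphatase subunits that set its phosphorylation, regulators of these kinases, and exchange factors. Of the 14, 1 rose and 2 fell (7.14% and 14.3%, near the 9.05% and 10.3% of all genes), with a median of 0.01. The largest fall was that of Eif2ak2, the double-stranded RNA sensor PKR (128 ± 8.55 to 55.4 CPM, log2 fold change -1.20). Ppp1r15a, the inducible subunit that reverses that phosphorylation, rose by 0.70 and its constitutive counterpart Ppp1r15b fell by 0.41 on the log2 scale. Eif2ak4, the kinase GCN2 that senses uncharged tRNA, had 25.2, 14.1 and 20.4 CPM in controls and 24.5, 23.7 and 26.1 CPM after Wt1 siRNA (log2 fold change 0.32, adjusted p = 0.278). Without Wt1 siRNA library 4, Ppp1r15b did not pass (adjusted p = 0.0898).

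**Figure D5:**
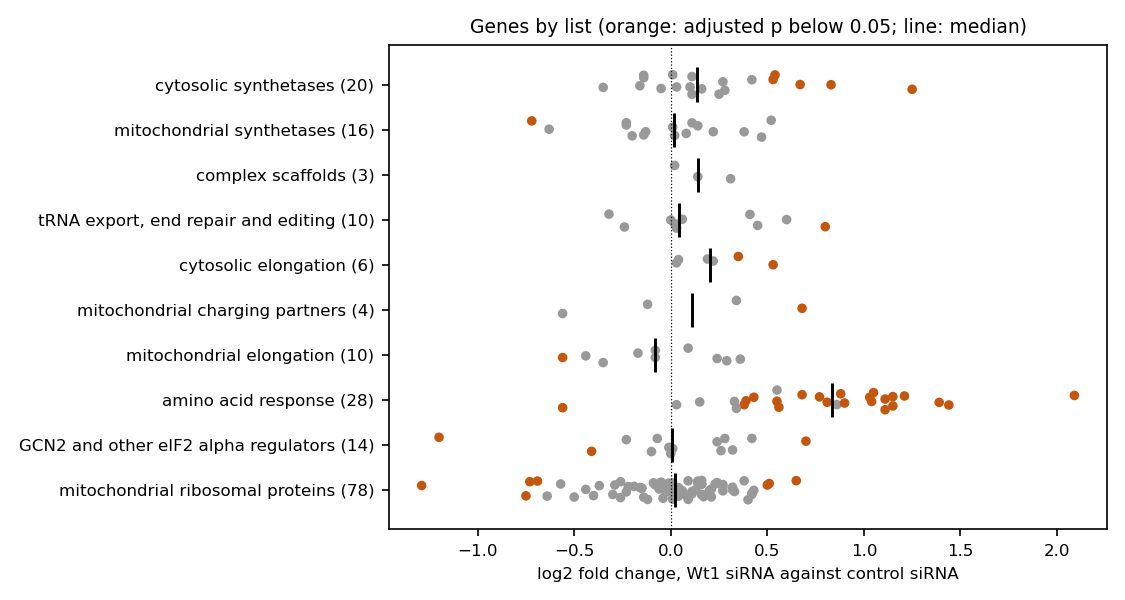
Log2 fold change (Wt1 siRNA against control siRNA) of each tested gene in the synthetase sets and in the other gene lists, with the number of genes in brackets, orange at an adjusted p below 0.05, and the median as a line. The median of the amino acid response list lies at 0.84, that of the cytosolic synthetases at 0.13 and that of the mitochondrial synthetases at 0.01. The list of mitochondrial charging partners lacks a gene left out after its value was known, so its median supports no statement.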

How the data were processed

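Counts were deposited by the authors as raw whole-number reads per Entrez gene ID, without normalization. CASAVA 1.8, bcl2fastq, DESeq and TopHat, and the builds mm10 and GRCm38, appear in the submitters' processing notes, without roles; the counting tool, annotation and strand setting were not given in the sources used here. Symbols and places came from RefSeq (GRCm38.p6), and transcript lengths and exon overlaps from GENCODE M21, with the longest transcript paired to RefSeq as length. Of 36 members 9 share exon bases with a gene on the opposite strand and 1 on the same strand.

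The fit used edgeR 4.0.16 (quasi-likelihood, R 4.3.3) on all 6 libraries with TMM factors, filterByExpr (14190 genes kept), the siRNA group as the only term, and Benjamini-Hochberg adjustment at 0.05. The SE of a log2 fold change is its size divided by the square root of F. Within groups, pairs of libraries differed by a chi-square of 18.9 to 70.9 per degree of freedom, so none was the same library deposited again; this does not show separate cultures. DESeq2 1.42.0, limma 3.58.1, other scaling and filters, and each library left out were the alternatives. The fit was tested on simulated data, in which the share of false calls was above the nominal level of the adjustment.

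Members and lists were chosen with earlier results of these data known. All 36 members are named, those with an adjusted p below 0.05 in full; other lists give at most the 3 called genes with the smallest p, or all genes of lists of up to 6. Mars1, Eprs, Dars, Nars and Nars2 were shown by library, and Ddit3, Exosc6, Rab3gap2, Atf4 and Eif2ak4 named, after their values were seen. From the list of mitochondrial charging partners 1 gene is not reported here and was left out after its value was known, so no summary of that list supports a statement.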

Additional observations from a re-analysis of the deposited data

How the results depend on the processing

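The 36 members and part of the other named genes gave 663 log2 fold changes under the 13 alternative settings. Of these, 614 kept their direction where called and their side of the threshold, 36 lost a call, 13 gained one and 0 reversed a call. Cebpb, whose call was lost without treated library 4, is not among the genes counted, so these counts do not cover every named gene. With library size scaling, which moved the median of all genes to -0.08, the count of all genes higher was 855; 1 cytosolic synthetase was lower, the median was 0.05 for cytosolic and -0.07 for mitochondrial synthetases, and the higher counts were 0 for cytosolic elongation, 0 for mitochondrial charging partners and 1 for mitochondrial ribosomal proteins, while 2 mitochondrial elongation genes were lower. No mitochondrial synthetase was lower with the size factors of DESeq2, robust shrinkage or limma-voom (0 in each), and limma-voom gave the mitochondrial median as 0.06. In the list of tRNA export, end repair and editing 2 were higher with no filter and in DESeq2. Leaving out each library in turn gave counts of 578 to 1253 for all genes higher and 785 to 1406 for all genes lower, 3 to 6 higher and 0 to 1 lower cytosolic synthetases, 0 to 1 higher and 0 to 1 lower mitochondrial synthetases (median -0.07 to 0.06), and higher counts of 1 to 2 for tRNA export, end repair and editing, 0 to 1 for cytosolic elongation, 0 to 1 for mitochondrial charging partners and 1 to 4 for mitochondrial ribosomal proteins. Lower counts were 0 to 2 for mitochondrial elongation, 0 to 1 for the amino acid response, 1 to 2 for eIF2 alpha regulators and 2 to 8 for mitochondrial ribosomal proteins. The cause of these shifts was not tested. The list of mitochondrial charging partners lacks a gene left out after its value was known, so its counts support no statement. The narrower promoter core TGATGCAA was in 30.8% of cytosolic windows and 0% of mitochondrial ones. Depth limits the scarce mitochondrial genes most: 3 counts in a library equal 0.0935 to 0.115 CPM.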

Other observations

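Several synthetase genes start close to a gene on the other strand. In GENCODE M21, 8 members have a protein-coding neighbour that starts within 300 bases in the opposite direction, 3 cytosolic and 5 mitochondrial. None of the 6 genes that passed is among them, where 9.05% of all genes tested were higher and 10.3% lower. At these shares, 8 genes are too few to read this as a trait of such genes. Hars and Hars2, 197 bases apart, had log2 fold changes of 0.11 ± 0.11 and -0.13 ± 0.14 (SE). Rars2 and Orc3, a subunit of the origin recognition complex, start 13 bases apart and had 0.14 ± 0.18 and -0.27 ± 0.17. Yars (-0.14) lies beside S100pbp (0.55 ± 0.29), Kars (-0.14) beside Terf2ip (0.22 ± 0.14), a telomere-binding protein, Ears2 (-0.23) beside Ubfd1 (0.08 ± 0.10), Fars2 (-0.20) beside Lyrm4 (-0.04 ± 0.33) and Sars2 (-0.63) beside Mrps12 (-0.03 ± 0.35), a mitochondrial ribosomal protein. Neither gene of any of these pairs passed (adjusted p from 0.215 to 0.969, edgeR), and differences between neighbours were not tested.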
